A study of Mus musculus with 4 samples.

Results

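Mucosal surfaces are defended by secreted and membrane-bound proteins that bind bacteria, build and repair the mucus layer and carry antibodies into secretions. In the liver such proteins belong mainly to the bile ducts, whose lining faces bile and is in contact, through the bile, with the gut, while in the rat the hepatocytes themselves carry immunoglobulin A into bile. The genes followed here are 9: Dmbt1, which encodes a secreted scavenger receptor cysteine-rich protein that binds bacteria; Tff3, a trefoil peptide of mucus-secreting cells that takes part in epithelial repair; Muc1, a membrane-spanning mucin; Clca1, a secreted protein of goblet cells; Sprr2a1, a small proline-rich protein of the cornified envelope; Ly6d, a membrane-anchored Ly6 protein; Agr2, a disulfide isomerase of the endoplasmic reticulum of goblet cells; Pigr, the receptor that carries polymeric immunoglobulin A across epithelia; and Scara3, a class A scavenger receptor family member.

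Liver mRNA was measured on 1 Affymetrix mouse array for each of 4 genotypes, with RNA of 3 male mice at 5 weeks of age pooled for each array. DS6 mice lacked ribosomal protein S6 in liver (Rps6 lox/lox with Alb-Cre), DS6 Myc mice carried that deletion and the Alb-c-Myc transgene, Alb-c-Myc mice carried the transgene with intact Rps6, and WT mice had neither, being named Rps6 lox/lox without Cre in the study. The albumin promoter drives Cre and c-Myc in hepatocytes, and Cre also in the hepatoblasts from which bile duct cells arise, and the study describes the deletion as incomplete. The 9 genes were picked by symbol in the platform annotation and held 14 of 45101 probe sets (9 genes beside 18194 named by a probe set with 1 symbol), of which the 3 of Sprr2a1 are shared with its close relatives Sprr2a2 and, for 1 of them, Sprr2a3. The list was chosen by name with the values of DS6 over WT on these same arrays known, so the rise in DS6 is a description and not a finding. With 1 array per genotype no difference has a replicate check and no test between genotypes was possible. As the only spread at hand, the standard deviation of a log2 ratio between probe sets of the same gene is given. It was 0.27 for DS6 over WT over 3379 genes whose probe sets averaged 8 or more on the log2 scale, and is not a replicate error. It was not measured for probe sets of lower level.

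The array medians lay between 6.85 and 6.88 on the log2 scale, and 33.4% of probe sets lay below 6 on every array, a level called dim here, below which the size of a ratio is uncertain. All 9 probe sets shared by Rps6 and Rps6-ps4 were lower in DS6 Myc than in Alb-c-Myc (median log2 ratio -1.76) and in DS6 than in WT (-0.29). The 2 probe sets annotated to Rps6 alone disagreed, one at 6.30 in DS6, 5.64 in DS6 Myc, 8.13 in Alb-c-Myc and 7.10 in WT, and the other highest in DS6 Myc at 8.25 and lowest in Alb-c-Myc at 5.65. Myc had log2 values of 11.37 in DS6 Myc, 11.68 in Alb-c-Myc, 8.89 in DS6 and 8.33 in WT. The WT array stood apart by Xist, transcribed from the inactive X, at 5.88 to 6.33 on the other arrays against 11.84 in WT. Every pool is described as male, and Y-linked genes were only slightly lower in WT than elsewhere. Eif2s3y had 8.67 in WT (8.91 to 9.11 elsewhere), Kdm5d 7.70 (8.07 to 8.25) and Uty 7.73 (7.79 to 8.03). WT also stood apart by pancreatic enzyme mRNAs such as Cpb1, at 4.66 to 6.10 on the other arrays against 9.61 in WT. DS6 was therefore also set against Alb-c-Myc. Hepatocyte markers were present at high levels on every array, with a median log2 value of 14.16 in DS6 over 11 measured markers and 14.64 in WT, and in such whole-tissue RNA a change in the number of cells of a type cannot be told apart from a change in the RNA of each cell.

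The sequence before the start was available for some of the genes. In the RefSeq table of GRCm38.p6, windows of 300 bases (250 before and 50 after the annotated start) were held for 4 of the 9 genes, namely Muc1, Sprr2a1, Pigr and Agr2. The windows of Muc1 and Pigr are shown because these genes moved in opposite directions, with matched motifs in capitals, and that of Sprr2a1 because it is copied in its relatives, with the run that is also in the Sprr2a3 window in capitals.
Muc1, chr3:89228806-89229105, plus strand: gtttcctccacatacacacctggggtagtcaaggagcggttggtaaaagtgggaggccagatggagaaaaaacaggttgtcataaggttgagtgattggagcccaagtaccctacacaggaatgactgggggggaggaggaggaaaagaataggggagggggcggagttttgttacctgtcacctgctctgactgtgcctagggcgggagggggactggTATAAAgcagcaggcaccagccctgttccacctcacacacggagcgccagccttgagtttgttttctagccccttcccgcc
Sprr2a1, chr3:92215585-92215884, plus strand: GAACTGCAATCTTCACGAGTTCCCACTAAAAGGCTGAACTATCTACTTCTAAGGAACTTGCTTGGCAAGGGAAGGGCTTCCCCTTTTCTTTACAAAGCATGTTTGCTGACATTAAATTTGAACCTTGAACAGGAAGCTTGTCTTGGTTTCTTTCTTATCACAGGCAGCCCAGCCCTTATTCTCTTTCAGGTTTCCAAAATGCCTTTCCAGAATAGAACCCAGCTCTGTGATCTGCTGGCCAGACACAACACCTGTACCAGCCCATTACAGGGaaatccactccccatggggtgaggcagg
Pigr, chr1:130826434-130826733, plus strand: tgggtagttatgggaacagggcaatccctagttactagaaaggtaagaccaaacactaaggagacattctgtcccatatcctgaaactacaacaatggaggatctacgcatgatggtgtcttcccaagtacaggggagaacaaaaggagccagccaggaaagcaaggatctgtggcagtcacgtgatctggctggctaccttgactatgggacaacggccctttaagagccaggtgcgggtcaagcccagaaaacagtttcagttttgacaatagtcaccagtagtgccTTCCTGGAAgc
The Sprr2a2 window was identical to that of Sprr2a1 over all 300 bases, and the longest run shared with Sprr2a3 was 272 bases. The windows do not show which copy the probe sets detected. Because those probe sets carry the symbols of several copies, the rise reported under Sprr2a1 may belong to any of these copies. Searched on both strands for TTCNNNGAA, the form bound by Stat factors, for TGANTCA, the form bound by AP-1, for TATAAA and for the NF-κB consensus, the 4 windows held 2 matches: TATAAA in Muc1 at bases -31 to -26 from the start, and TTCNNNGAA in Pigr at bases 40 to 48. The Sprr2a3 window, which is not 1 of these 4, held TTCNNNGAA at bases -249 to -241, outside the run shared with Sprr2a1. Of all 32851 windows in the table, 8.3% held TTCNNNGAA, 7.81% TGANTCA, 13.6% TATAAA and 4.51% the NF-κB consensus. These are matches of letters in a short window and say nothing of whether a factor binds.

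In DS6 liver 7 of the 9 genes exceeded WT by 2-fold or more, all 7 of them by more than 8-fold, while Pigr was lower and Agr2 stayed at a dim level. The label of the group as induced in liver therefore holds for 7 genes, and Pigr and Agr2 go against it. On the whole array 5.18% of probe sets were at least 2-fold higher in DS6 than in WT, 0.408% were at least 8-fold higher and 2.07% at least 2-fold lower, shares from which nothing is read here because this comparison was known when the list was drawn up. The median log2 ratio of the 9 genes was 4.70, beside -0.05 over all genes. Of the 7 higher members the lowest was Sprr2a1 at 4.12, and below it lay Agr2 at -0.40 and Pigr at -1.39.

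**Figure D1:**
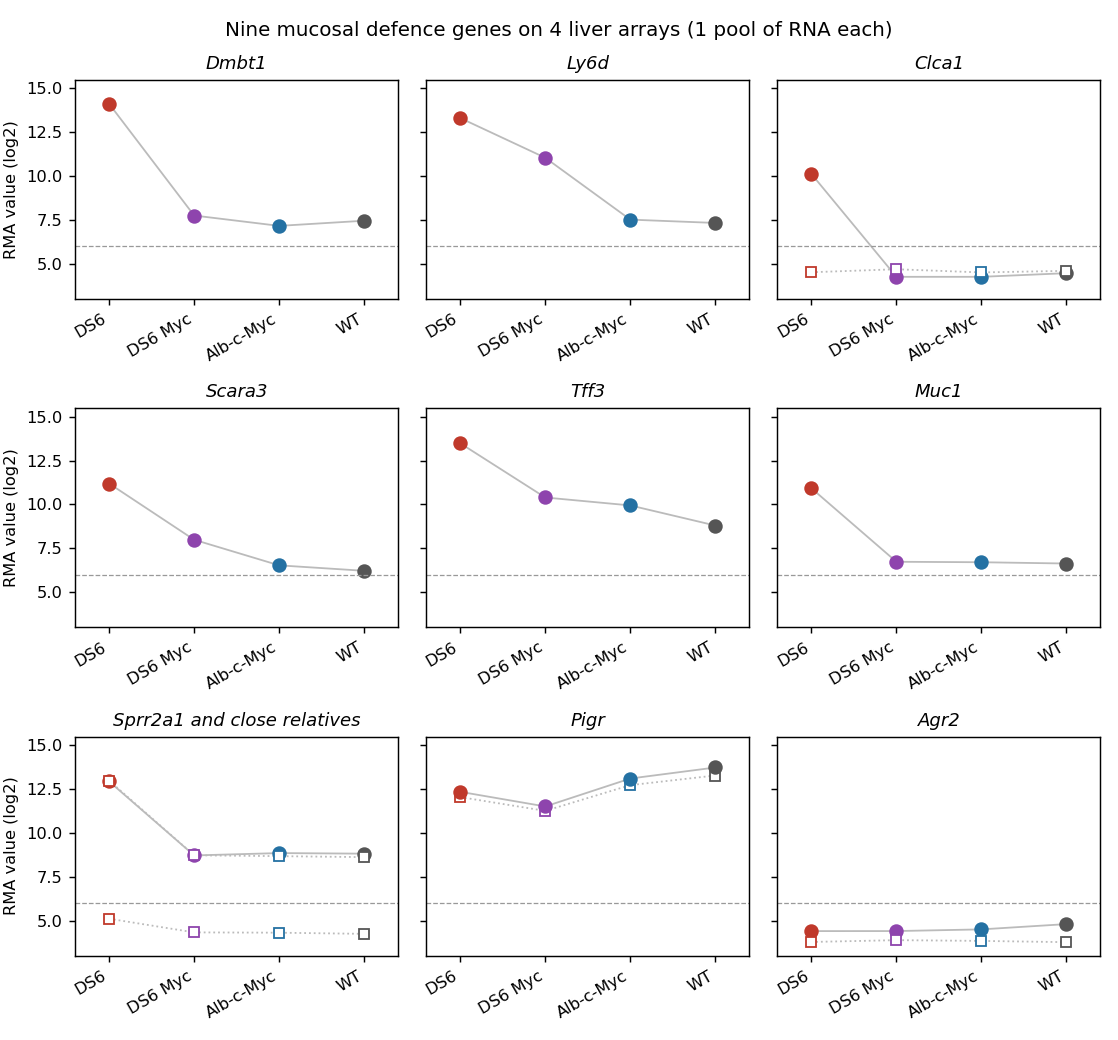
RMA values (log2, vertical axis) of the 9 genes on the 4 arrays (horizontal axis, 1 pool of RNA per genotype); filled circles are the probe set that represents the gene, open squares its other probe sets, and the dashed line marks the dim limit of 6. Dmbt1 lies at 14.12 in DS6 and between 7.15 and 7.74 on the other arrays, Ly6d keeps 11.04 in DS6 Myc, and Pigr is highest in WT at 13.74.

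Dmbt1 had the largest difference among the members. Its log2 value was 14.12 in DS6, 7.74 in DS6 Myc, 7.15 in Alb-c-Myc and 7.45 in WT. DS6 thus stood alone, 102-fold above WT and 83.3-fold above DS6 Myc, and the other 3 arrays lay within 0.59 of each other on the log2 scale. For DS6 Myc over Alb-c-Myc, a comparison without the DS6 and WT arrays, the log2 ratio was 0.59, against a spread between probe sets of 0.24 in that comparison.

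The trefoil factor Tff3 was also highest in DS6 but was graded over the other arrays. Its log2 value was 13.50 in DS6, 10.40 in DS6 Myc, 9.95 in Alb-c-Myc and 8.80 in WT, and each step in this order was larger than the spread between probe sets. Tff3 was the only member at least 2-fold higher in Alb-c-Myc than in WT (2.21-fold), a fold reached by 0.284% of probe sets. Its level in DS6 Myc was accordingly 3.03-fold that of WT but 1.37-fold that of Alb-c-Myc, so the height of Tff3 in DS6 Myc depended on which array without the deletion it was set against.

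The mucin Muc1 and the proline-rich Sprr2a1 had nearly the same profile. Muc1 had log2 values of 10.93 in DS6, 6.73 in DS6 Myc, 6.70 in Alb-c-Myc and 6.63 in WT. Sprr2a1 and its relatives had 12.94 in DS6, 8.72 in DS6 Myc, 8.85 in Alb-c-Myc and 8.82 in WT on the probe set with the highest mean. For both genes only DS6 stood out, and the other 3 arrays did not differ by more than the spread between probe sets. The log2 ratios to WT of Muc1 and Sprr2a1 differed by a root mean square of 0.16 over 3 ratios, the smallest such difference between any pair of the 9 genes. A second bright probe set shared by Sprr2a2 and Sprr2a1 had a ratio of 4.37 in DS6 over WT, and the remaining one, at 5.10 in DS6 and 4.24 in WT, had 0.86 and was dim on every array.

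Clca1 was seen only in DS6. Its log2 value was 10.12 in DS6, 4.24 in both DS6 Myc and Alb-c-Myc, and 4.45 in WT, so that 3 of the 4 arrays were dim and the 50.9-fold difference between DS6 and WT is uncertain in size. The other probe set annotated to Clca1 was dim on all arrays, between 4.49 and 4.68, and had a log2 ratio of -0.08 in DS6 over WT. The rise of Clca1 therefore rests on 1 of 2 probe sets.

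Ly6d and Scara3 stayed above the arrays without the deletion when c-Myc was added. Ly6d had log2 values of 13.31 in DS6, 11.04 in DS6 Myc, 7.51 in Alb-c-Myc and 7.32 in WT, and Scara3, whose human counterpart is known from the response of cells to oxidative stress, had 11.20 in DS6, 7.99 in DS6 Myc, 6.52 in Alb-c-Myc and 6.21 in WT. Both genes were ordered alike, with DS6 highest, DS6 Myc between and the 2 arrays with intact Rps6 lowest. Ly6d was 63.6-fold higher in DS6 than in WT, and 11.6-fold higher in DS6 Myc than in Alb-c-Myc, the place of its probe set being the same in both comparisons, number 11 of 45101 from the top. Scara3 was 31.7-fold higher in DS6 than in WT and 2.75-fold higher in DS6 Myc than in Alb-c-Myc.

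Pigr went the other way. Its probe set with the highest mean had log2 values of 12.35 in DS6, 11.51 in DS6 Myc, 13.11 in Alb-c-Myc and 13.74 in WT, and its other probe set 12.05 in DS6, 11.26 in DS6 Myc, 12.73 in Alb-c-Myc and 13.28 in WT. On both probe sets WT was highest and DS6 Myc lowest, and every step was larger than the spread between probe sets. Pigr was lower in DS6 than in WT by a log2 ratio of -1.39, or -1.23 on the other probe set. In DS6 Myc over Alb-c-Myc it had -1.60 and -1.47. In DS6 over Alb-c-Myc Pigr had -0.76 and -0.68, both within 2-fold. It remained an abundant mRNA, with every value above 11 on the log2 scale. Agr2 was dim on every array, with 4.39 in DS6, 4.40 in DS6 Myc, 4.49 in Alb-c-Myc and 4.79 in WT on its brighter probe set and 3.76 to 3.88 on the other, so no order is read from it.

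Adding c-Myc to the deletion was associated with lower values of the same 7 genes. In DS6 Myc over DS6, 7 of 9 members were at least 2-fold lower and 0 higher, where 3.07% of all probe sets were lower and 0.581% higher, and the median log2 ratio of the members was -3.21, beside 0.05 over all genes. This comparison shares the DS6 array with DS6 over WT, so a high value on that array enters both. The smallest of the 7 falls was that of Ly6d, at a log2 ratio of -2.27, and the largest was that of Dmbt1, at -6.38. Pigr was lower by -0.84 and Agr2 differed by 0.00.

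Set against WT, DS6 Myc had 3 members at least 2-fold higher, Ly6d (13.2-fold), Scara3 (3.42-fold) and Tff3 (3.03-fold), and 1 lower, Pigr (log2 ratio -2.23), on an array where 2.16% of probe sets were higher and 1.51% lower. Dmbt1 (0.30), Muc1 (0.10), Sprr2a1 (-0.10), Clca1 (-0.21) and Agr2 (-0.40) were within 2-fold, with a spread between probe sets of 0.29. Set against Alb-c-Myc, DS6 Myc had 2 members higher, Ly6d and Scara3, and again Pigr lower, where 1.48% of probe sets were higher and 1.07% lower. The median log2 ratio of the 9 genes was 0.10 over WT and 0.03 over Alb-c-Myc.

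The transgene without the deletion left 8 of the 9 genes within 2-fold of WT. In Alb-c-Myc over WT, 1 member was higher, Tff3, and 0 were lower, where 0.246% of probe sets were lower. Pigr had a log2 ratio of -0.63, Scara3 of 0.31 and Dmbt1 of -0.29, each larger than the spread between probe sets of 0.14. Muc1 (0.07) and Sprr2a1 (0.03) lay within it. That spread was taken from probe sets averaging 8 or more, and Scara3, Dmbt1 and Muc1 were below 8 on both arrays. Set against Alb-c-Myc, the same 7 genes were at least 2-fold higher in DS6, where 5.07% of all probe sets were. These 7 were known to be high on the DS6 array, which this comparison shares, so their count was largely fixed by their choice. The median of the 9 was 4.23, and 0 members were at least 2-fold lower. Pigr had -0.76, and -0.68 on its other probe set, so its 2-fold fall in DS6 was seen only against WT.

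The ratio of the deletion in livers with the transgene (DS6 Myc over Alb-c-Myc) was also set against that in livers without it (DS6 over WT). Because the 7 genes were known to be high in DS6 over WT, a negative difference was largely fixed by their choice, and the values are a description of its size only. The log2 ratio with the transgene less that without it was -6.09 for Dmbt1, -5.67 for Clca1, -4.27 for Muc1, -4.26 for Sprr2a1, -4.24 for Tff3, -3.52 for Scara3 and -2.46 for Ly6d. For Pigr it was -0.21 and for Agr2 0.30. Over all genes the median of this difference was 0.03, with a spread between probe sets of 0.22. Pigr thus had about the same ratio in both settings when DS6 was set against WT. Set against Alb-c-Myc, Pigr had -0.76 in DS6 and -1.60 in DS6 Myc. Neither reading could be tested with 1 array each.

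**Figure D2:**
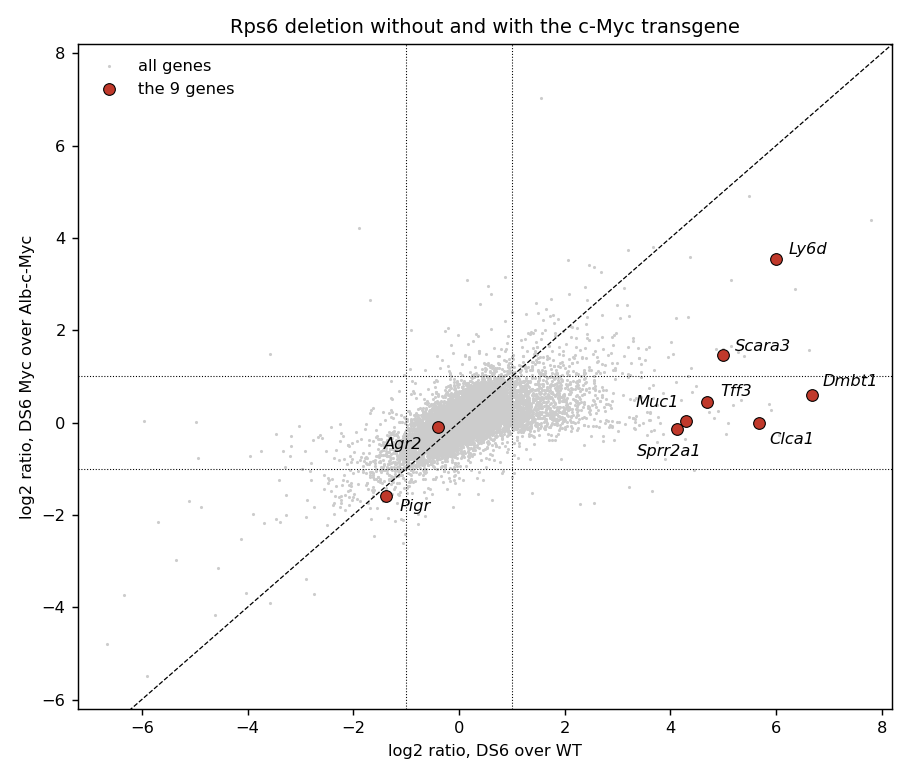
Log2 ratio of DS6 over WT (horizontal axis) and of DS6 Myc over Alb-c-Myc (vertical axis) for all genes (grey) and the 9 genes (red); the 2 ratios share no array, dotted lines mark 2-fold and the dashed line equal ratios. Ly6d lies at 5.99 and 3.53 and Dmbt1 at 6.68 and 0.59, both below the dashed line, and Pigr at -1.39 and -1.60.

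The genes whose 3 log2 ratios to WT lay nearest to those of a member were sought among 14352 genes that reached 6 on at least 1 array, with the root mean square difference as the measure of likeness. A gene could enter through DS6 alone, so for genes that are dim elsewhere the likeness mainly restates the height in DS6. Nearest to Dmbt1 were the calcium-binding S100a9 (0.47) and S100a8 (0.48) of neutrophils, and nearest to Clca1 was Sptssb (0.26), a subunit of serine palmitoyltransferase, with S100a9 (0.26) next. Clca1 and Sptssb were both dim on the 3 arrays other than DS6, so 2 of the 3 ratios compared lie between background-level values. Sprr2a1 was nearest to Lypd8 (0.17), a Ly6-related protein that in the mouse colon binds flagellated bacteria and was dim outside DS6, and to Igha (0.19), the constant region of immunoglobulin A. Muc1 was nearest to the acute phase gene Saa3 (0.25), Scara3 to the galectin Lgals2 (0.08) and to Lcn2 (0.17), which binds bacterial siderophores, and Tff3 to the hyaluronan receptor Cd44 (0.47). Ly6d had the fewest near neighbours, with 2 genes within 1, the fetal growth factor Igf2 (0.34) and Sox4 (0.65). Pigr was nearest to Nxpe2 (0.25). With 4 arrays this is a likeness in 3 numbers that share the WT array.

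In the families of the members few other genes were past 2-fold, and the small counts are to be read beside the 5.18% of all probe sets that were at least 2-fold higher in DS6 than in WT. Of the other trefoil factors Tff1 had log2 values of 12.32 in DS6, 10.43 in DS6 Myc, 10.47 in Alb-c-Myc and 10.42 in WT, and Tff2, a gastric and pancreatic trefoil peptide, had 10.31 in DS6, 7.35 in DS6 Myc, 7.33 in Alb-c-Myc and 7.33 in WT. Both were high in DS6 alone, unlike Tff3. Of 12 other mucin and mucin-like genes 1 was at least 2-fold higher in DS6 than in WT and 0 were lower, and this was Muc3, a membrane mucin of the intestine, with 8.37 in DS6, 5.34 in DS6 Myc, 5.37 in Alb-c-Myc and 5.24 in WT. The secreted gel-forming mucins Muc5ac (-0.43) and Muc5b (-0.17) were within 2-fold. Of 7 other Clca genes, of which 2 reached 6 on any array, 1 was higher in DS6 than in WT, Clca3a1 (8.42 in DS6 and 6.92 in WT), and 0 were lower.

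Genes of goblet and other secretory cells were mostly within 2-fold. Of 24 measured, beside Clca1 and Agr2, 4 were at least 2-fold higher in DS6 than in WT, 1 was lower, and the median ratio was -0.03 (log2), or 0.29 over the 17 that reached 6 on at least 1 array. The higher ones were the potassium channel Kcnk1 (3.00), the mucin glycosyltransferases Gcnt3 (2.65) and Galnt12 (1.61), and the mucus protein Fcgbp (1.28). All 4 were within 2-fold of WT in DS6 Myc, at 0.02, -0.15, -0.14 and 0.03. The lower one, Zg16, is also made in pancreatic acinar cells and was low on all 3 other arrays, with 6.34 in DS6, 6.37 in DS6 Myc and 6.40 in Alb-c-Myc against 8.59 in WT. Spdef, a transcription factor of goblet cells, had a ratio of -0.01.

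Among the relatives of Sprr2a1 and Ly6d a minority were higher. Of 14 other genes of the cornified envelope 3 were at least 2-fold higher in DS6 than in WT and 0 lower. These were Sprr1a (3.20), the protease inhibitor Cstb (1.13) and the plakin Ppl (1.01), and Sprr1a kept a ratio of 2.30 over WT in DS6 Myc. Of 5 other Sprr2 genes with a probe set of their own, a list added after the values were seen, 0 were past 2-fold in either direction, Sprr2k having -0.07. Of 17 genes of the Ly6 family 2 were higher, Lypd8 (3.85) and Ly6e (1.30), and 0 were lower. In DS6 Myc over WT neither was past 2-fold, at -0.10 and 0.33, so none of the other measured Ly6 genes kept a ratio like the 3.72 of Ly6d.

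The scavenger receptors held the class A receptor Marco of macrophages, with log2 values of 13.07 in DS6, 9.60 in DS6 Myc, 8.08 in Alb-c-Myc and 7.78 in WT, an order like that of Scara3. Of 16 genes 5 were at least 2-fold higher in DS6 than in WT, 0 were lower, and the median ratio was 0.19 (log2). Scara5, a ferritin receptor, had 9.83 in DS6, 7.32 in DS6 Myc, 9.07 in Alb-c-Myc and 7.28 in WT, and so was high with the transgene alone as well.

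Pigr and the antibody it carries differed in opposite directions in DS6. Igha had log2 values of 12.57 in DS6, 8.74 in DS6 Myc, 8.76 in Alb-c-Myc and 8.75 in WT, and Jchain, which joins immunoglobulin A into polymers, had 10.59 in DS6, 7.15 in DS6 Myc, 7.16 in Alb-c-Myc and 7.10 in WT. Both were high in DS6 alone, where Pigr was lower than in WT. Of 8 genes of immunoglobulin A and its transport these 2 were higher and 1 was lower, Derl3 (-2.00). The B cell markers Cd79a (0.13) and Ms4a1 (-0.28) were within 2-fold. Of the other genes in the B and plasma cell list, Mzb1 (-0.04) and Xbp1 (0.48) were also within 2-fold, and Prdm1 and Tnfrsf17 were dim on every array.

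Antimicrobial proteins of epithelia and phagocytes were the longest of the lists of defence genes. Of 27 measured, 13 were at least 2-fold higher in DS6 than in WT, 1 was lower, and the median ratio was 0.50 (log2). Over the 20 genes that reached 6 on at least 1 array, which a gene high in DS6 alone does, the median was 2.28. In DS6 Myc over WT 4 were higher and 3 lower. Reg1, lower in both comparisons, was highest on the WT array, with 7.85 in DS6, 6.06 in DS6 Myc, 6.23 in Alb-c-Myc and 9.41 in WT. In DS6 over Alb-c-Myc 14 of the 27 were higher, Reg1 (1.62) among them, and 0 lower. Lcn2 had 14.02 in DS6, 10.59 in DS6 Myc, 8.94 in Alb-c-Myc and 8.87 in WT, and the peptidoglycan-binding Pglyrp1 of neutrophils had 10.07 in DS6, 5.46 in DS6 Myc, 5.36 in Alb-c-Myc and 5.25 in WT. Lcn2 kept part of its height in DS6 Myc and Pglyrp1 did not. The Reg3 lectins of the gut, also defence proteins, had ratios of -0.49 for Reg3b and 0.09 for Reg3g in DS6 over WT. Reg3b was near the dim limit, and Reg3g was dim on every array, so nothing is read from its ratio.

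**Figure D3:**
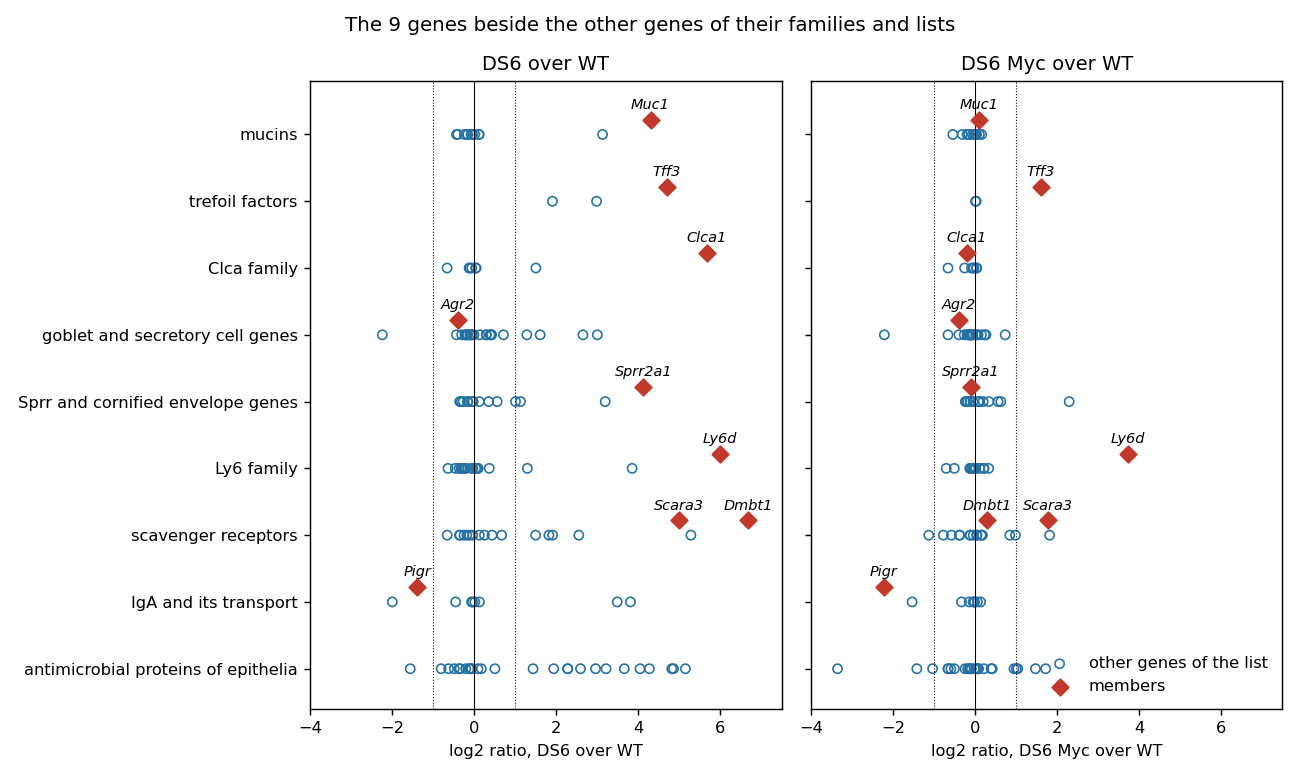
Log2 ratios of the 9 genes (red diamonds, labelled) and of the other genes of 9 families and lists (blue circles), for DS6 over WT on the left and DS6 Myc over WT on the right; dotted lines mark 2-fold, and the 2 panels share the WT array. In the left panel the 7 higher members lie at 4.12 to 6.68, Agr2 at -0.40 and Pigr at -1.39. Of the other genes there, Tff2 lies at 2.98 and Muc3 at 3.13, and some, such as Marco at 5.29, lie within the range of the 7. In the right panel Ly6d stands at 3.72.

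Genes of NF-κB and of IL-6 and IL-22 signalling were also counted. Of 18 NF-κB subunits and feedback genes 9 were at least 2-fold higher in DS6 than in WT, 0 were lower, and the median ratio was 0.89 (log2). In DS6 Myc over WT 5 were higher, namely Relb (2.03), Icam1 (1.99), Vcam1 (1.37), Tnfaip3 (1.09) and Ikbkg (1.08), of which Ikbkg had 0.57 in DS6 over WT and was not among the 9. The NF-κB subunit Relb had 9.09 in DS6, 8.21 in DS6 Myc, 6.52 in Alb-c-Myc and 6.18 in WT. The other genes of the list differed. Nfkbiz had 1.90 in DS6 over WT and -0.02 in DS6 Myc over WT, and Nfkbie had 1.46 and 0.29. In the same 2 comparisons Nfkb2 had 1.25 and 0.84, Bcl3 1.01 and 0.48, and Rela 0.77 and 0.88. Not all of them were therefore near WT in DS6 Myc. Of 16 genes of IL-6 and IL-22 reception and Stat3 signalling 3 were higher and 1 lower (median 0.27). The oncostatin M receptor Osmr had 9.40 in DS6, 6.92 in DS6 Myc, 6.57 in Alb-c-Myc and 7.17 in WT, and the feedback inhibitor Socs3 had ratios of 1.11 in DS6 over WT and -0.38 in DS6 Myc over WT. The receptor Lifr was lower on both arrays with the deletion, at 10.69 in DS6 and 11.17 in DS6 Myc against 13.20 in Alb-c-Myc and 13.58 in WT.

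Markers of bile duct cells, neutrophils and macrophages moved with the members, and their part in the result was not tested. Of all probe sets 5.18% were at least 2-fold higher in DS6 than in WT. Most markers of B, plasma and T cells did not move. Of 11 B and plasma cell markers 2 were higher, Igha and Jchain, and 0 lower, and of 6 T cell markers 0 were past 2-fold. Of 17 bile duct and progenitor markers 12 were at least 2-fold higher in DS6 than in WT and 0 lower. Krt19 had 12.47 in DS6, 7.53 in DS6 Myc, 7.04 in Alb-c-Myc and 7.13 in WT. In DS6 Myc over WT 5 of the 17 were higher and 0 lower. The 5 were Prom1 (2.66), Bicc1 (1.49), Cd24a (1.22), Epcam (1.19) and Cldn7 (1.08). The summed linear level of the 17 was 34407 in DS6, 9137 in DS6 Myc, 6159 in Alb-c-Myc and 6799 in WT. Of 12 neutrophil markers 9 were higher and 0 lower, with summed levels of 42498 in DS6, 2688 in DS6 Myc, 1556 in Alb-c-Myc and 1615 in WT. Of 13 macrophage and Kupffer cell markers 11 were higher and 0 lower, with summed levels of 50872 in DS6, 17145 in DS6 Myc, 9807 in Alb-c-Myc and 10990 in WT. In the bile duct, neutrophil and macrophage lists the sum of DS6 Myc lay between those of DS6 and WT and nearer to that of WT. In the neutrophil list 1 of 12 markers was at least 2-fold higher in DS6 Myc than in WT. It was Lcn2 (1.72), which is also in the list of antimicrobial proteins. The median ratio of the neutrophil list was 0.09 (log2), so its higher sum in DS6 Myc than in WT rests mainly on Lcn2.

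Markers of gut epithelium were read because Clca1, Tff3 and Muc3 are made there. Of 12 intestinal markers 6 were at least 2-fold higher in DS6 than in WT and 0 lower, with the actin-bundling Vil1 at 3.24, the cadherin Cdh17 at 2.11 and the galectin Lgals4 at 2.05. The defining transcription factors Cdx1 (-0.17) and Cdx2 (-0.27) and the fatty acid carrier Fabp2 (-0.64) were within 2-fold, and Cdx1 was dim on every array. Of 9 gastric markers 2 were higher, Atp4a (1.48) and Gkn2 (1.34). Of 8 squamous markers, of which 5 reached 6 on any array, 0 were past 2-fold in either direction. The rise of Sprr2a1 was thus not accompanied by one of the keratin Krt5 (-0.25). The keratin Krt14 (-0.46) was near the dim limit, with 5.74 in DS6 and 6.20 in WT, so nothing is read from its ratio. Of 12 pancreatic acinar markers 11 were lower in DS6 than in WT and 9 were lower in Alb-c-Myc than in WT.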

How the data were processed

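Total liver RNA of 3 mice per genotype was pooled in equal amounts by the authors and measured on Affymetrix mouse expression arrays. The files hold log2 levels, 1 for each probe set, which the authors computed with RMA and normalized by quantiles. Processing notes of the submitters list RMA and affy (versions: not given in the sources used here). Probe intensities and detection calls were not used here, so background correction was kept as deposited. The precision is limited by the number of arrays, 1 per genotype.

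The platform annotation supplied gene symbols (34958 with 1 symbol, 932 with several, 9211 with none), and each gene was represented by the probe set whose mean over 4 arrays was highest. Log2 ratios were computed between arrays, with 2-fold as the threshold. Named were the 9 members, up to 4 genes per list with the largest ratio in DS6 over WT among those reaching 6, and the 3 genes nearest to each member. Others in the text (among them Fcgbp, Spdef, Cd79a, Reg3b, Reg3g, Ikbkg, Nfkbiz, Nfkbie, Nfkb2, Bcl3, Rela, Cdx1, Cdx2 and Fabp2) were named after their values were seen. The members and the lists were chosen with earlier results of these data known. Counting and nearest-profile steps were checked on simulated arrays. Alternatives were other normalizations, probe set choices, thresholds, a dim filter and Alb-c-Myc as the array that DS6 was set against. Promoter windows came from RefSeq (GRCm38.p6). Python 3.11.15, numpy 2.4.6, pandas 2.3.3, statsmodels 0.14.6 and matplotlib 3.10.9 were used.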

Additional observations from a re-analysis of the deposited data

How the results depend on the processing

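No paired analysis was possible because each genotype had 1 array. Of 127 recomputed counts and medians, 113 stayed within the limits set for them (1.5 times for a count, the spread between probe sets for a median), and no called value reversed its direction. With all probe sets of a gene averaged, the median log2 ratio of the members in DS6 over WT was 4.30. With 1 probe set per gene and DS6 set against Alb-c-Myc it was 4.23. With dim probe sets left out, which removes Agr2, the median in DS6 Myc over DS6 was -3.71 over 8 genes. At 4-fold and at 8-fold, 0 members were lower in DS6 over WT and in DS6 Myc over Alb-c-Myc, 1 was higher in DS6 Myc over Alb-c-Myc and in DS6 Myc over WT (Ly6d), and 0 were higher in Alb-c-Myc over WT. At 8-fold 0 were lower in DS6 Myc over WT. Of 310 values of single members 5 moved by more than the spread, all with probe sets averaged, among them Clca1 (2.79) and Sprr2a1 (3.12) in DS6 over WT, where dim probe sets enter the mean. What limits the dim genes is signal near background, and what limits every ratio is the single array per genotype. The WT array, which carried Xist and pancreatic mRNAs, enters every ratio over WT.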
